A study of Mus musculus with 6 samples.

Results

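Genes for receptors of glutamate, GABA, glycine and acetylcholine (the nicotinic type) were examined in bulk RNA-seq of mouse dorsal root ganglion (DRG)/tumors. Of the 24062 genes counted in the deposited files, 68 had a symbol of these families and were taken by name alone: 4 AMPA, 5 kainate, 7 NMDA and 2 delta subunits, 8 metabotropic glutamate receptors, 19 GABA-A and 2 GABA-B subunits, 5 glycine receptor subunits, and 11 neuronal and 5 muscle-type nicotinic subunits. The 6 libraries came from 3 *Nf1fl/fl;DhhCre* mice and 3 mice labelled as Runx1/Runx3 double knockout, all on a C57BL/6-I129 background. The labels write the second genotype as Rx1flfl;Rx3fl/fl;DhhCre, whereas the RNA protocol and the methods of the study add Nf1fl/fl, so that by these sources both genotypes are floxed for *Nf1*. The label for tissue is DRG in the *Nf1fl/fl;DhhCre* libraries and neurofibroma tumor in the others. The protocol gives DRG/tumors for both. The results text of the study instead names tumors for *Nf1fl/fl;DhhCre* and DRG/tumors for the double knockout. These sources conflict, so the tissue of each library is uncertain, and tissue and genotype cannot be told apart. Cre driven by Dhh recombines in the Schwann cell (SC) lineage, and cells outside that lineage keep intact genes. The age of these mice is not given in the sources used here.

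Glutamate is the transmitter that sensory neurons of the DRG release. GABA and glycine are inhibitory transmitters, and GABA acts back on the terminals of these neurons. AMPA, kainate and NMDA receptors, GABA-A receptors, glycine receptors and nicotinic receptors are ion channels built from several subunits, whose mix sets conductance, kinetics and drug sensitivity. Metabotropic glutamate receptors and GABA-B receptors signal through G proteins. DRG somata carry several of these receptors although they receive few synapses, and glia and muscle express some of the same subunits.

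Total counts ranged from 12439296 to 16682194 per library. *Runx1* was at 131, 141 and 172 CPM (counts scaled to a common library total, with TMM factors) in the *Nf1fl/fl;DhhCre* replicates 1 to 3 and at 84.0, 78.9 and 185 CPM under the double-knockout label, so that replicate 3 of that label had the highest value of all. *Runx3* was at 19.9, 15.1 and 29.9 against 13.5, 10.3 and 12.1 CPM. The labels placed 1 double-knockout library in another sequencing run, and because titles and file names disagree it may be replicate 2 or replicate 3. Markers of neurons moved with genotype: 15 of 16 pan-neuron markers were higher in the double-knockout libraries, with a median log2 fold change of 2.12, and their summed level was 1386 to 2636 CPM against 6282 to 14071 CPM. Of 17 sensory neuron markers 14 were higher (median 2.40). Macrophage markers were lower (10 of 12 tested, summed level 1224 to 2341 against 207 to 494 CPM), fibroblast markers were lower in 5 of 9, and myelinating SC markers were higher in 7 of 9. Of 9 general SC markers 2 were higher and 1 was lower, as were 2 and 1 of 7 satellite glia markers, and none of the 7 mast cell, 7 endothelial, 6 adipocyte and 11 skeletal muscle markers tested was a DEG (a differentially expressed gene, defined below) with limma-voom, while 2, 3, 0 and 0 of them had an unadjusted p below 0.05 and DESeq2 called 1 endothelial marker. Of 9 central glia markers 4 were tested, 1 higher and 1 lower, and those that define oligodendrocytes were at or near 0. The lower one, *Gfap*, is on both lists and is the same gene as the lower general SC marker. Skeletal muscle genes summed to 3620 CPM in *Nf1fl/fl;DhhCre* replicate 2 and 14098 CPM in double-knockout replicate 2, against 11.9 to 94.1 CPM in the other libraries. In bulk RNA, fewer cells of a type and less RNA per cell cannot be told apart, and the part of these shifts in the receptor values below was not tested except where a value relative to neuron markers is given.

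The comparison asked which receptor genes differed between the genotypes. Receptor genes were more often higher than lower in the double-knockout libraries. After the filter on low counts, 48 of the 68 were tested with limma-voom, and 24 rose and 1 fell past the thresholds of the study (adjusted p below 0.05 and more than 2-fold, a DEG). Among all 15652 genes tested, 8.03% rose and 5.36% fell by the same rule. The remaining 23 tested receptor genes were not DEGs. At an adjusted p below 0.05 whatever the size of the change, 27 of the 48 passed, against 19.3% of all genes. The median log2 fold change (double knockout over *Nf1fl/fl;DhhCre*) was 1.70 over the 48 receptor genes and 0.02 over all genes, and 37 of the 48 had a positive value, against 51.1% of all genes. In 25 of the 48, each double-knockout library lay above each *Nf1fl/fl;DhhCre* library (21.8% of all genes), and in 3 each lay below (20.5% of all genes). The count of DEGs rested on few libraries: it was 2 (1 higher) without *Nf1fl/fl;DhhCre* replicate 1, 10 without its replicate 3, 14 without double-knockout replicate 2 and 18 without both muscle-rich libraries. The count over all genes, 2096, was 362, 1033, 1018 and 1752 in these fits. Each of the 24 kept a positive fold change in each of them. For these genes each double-knockout library lay above each *Nf1fl/fl;DhhCre* library, so leaving out libraries could hardly change the sign. Nothing is read from the kept sign. Of the 24, 5 (*Grm3*, *Grm8*, *Chrna4*, *Chrna6* and *Chrnb3*) reached the read minimum of the filter in fewer than 3 *Nf1fl/fl;DhhCre* libraries and entered the test through the double-knockout libraries, so their calls are a description. The other 19 reached it in all 3. *Grid1*, 1 of the 25 without overlap, also entered through the double-knockout libraries. The counts of 24 and 25 include these genes, whose entry favoured a difference. Among these 24, the calls of *Gria2*, *Grik4*, *Grin3a*, *Grm8* and *Chrna4* held in 2 of the 6 fits made on 5 libraries, that of *Gabrg1* in 1 and that of *Grm3* in 0. Without both muscle-rich libraries, the calls of these genes other than *Grik4*, and that of *Chrnb3*, were lost. Values below are given per library, and p-values describe only the spread between these 6 samples.

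**Figure D1:**
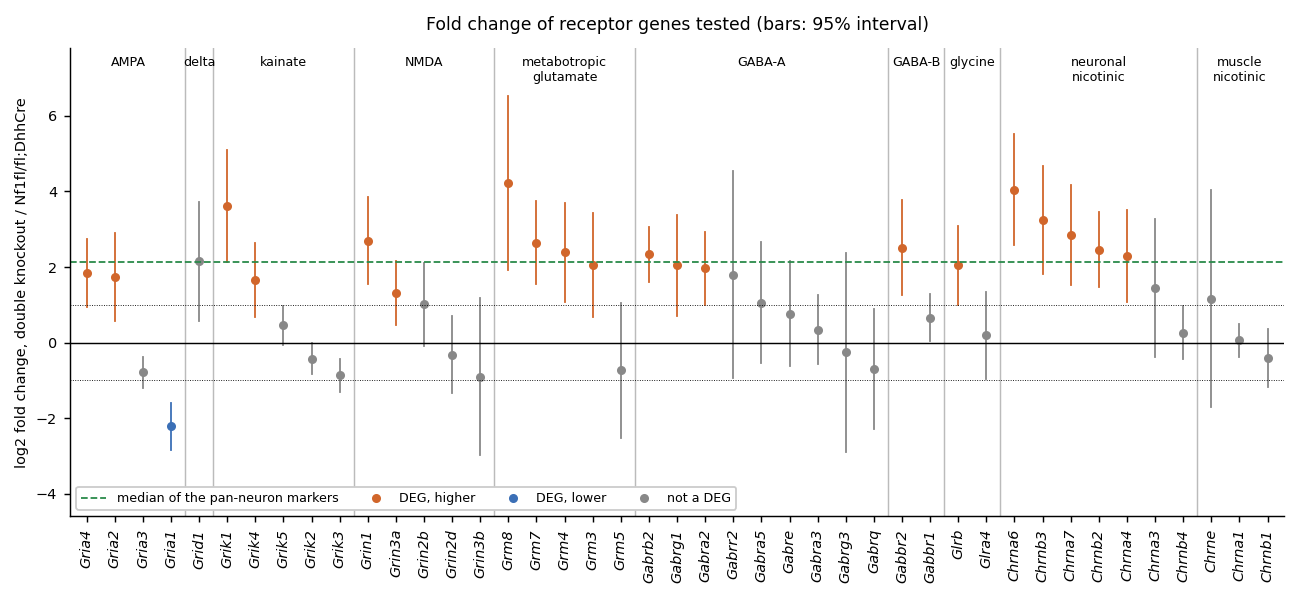
Fold change of 43 of the 48 receptor genes tested, on the log2 scale (vertical axis), by family. Points are limma-voom estimates, bars their 95% intervals, dotted lines mark a 2-fold change, and the dashed line is the median of the pan-neuron markers (2.12); of those shown, 20 (orange) rose, *Gria1* (blue) fell, and 22 (grey) were not DEGs.

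Of the 4 AMPA receptor subunits, 2 rose, 1 fell and 1 was lower by less than 2-fold. *Gria1*, chr11:57011387-57330244 in GRCm38 (mm10), encodes GluA1 and was at 36.9, 32.2 and 28.5 CPM in the *Nf1fl/fl;DhhCre* libraries and 6.38, 5.02 and 9.64 CPM in the double-knockout libraries. The genotypes did not overlap, and *Gria1* was the receptor gene that fell (log2 fold change -2.22, SE 0.27, adjusted p = 0.00805), and it stayed a DEG whichever library was removed. *Gria3* (GluA3, chrX:41400854-41678601), the receptor gene with the highest mean CPM per kb of exon in the *Nf1fl/fl;DhhCre* libraries (33.9), was at 386, 288 and 329 against 225, 157 and 198 CPM. It was lower with no overlap (log2 fold change -0.79, SE 0.17, adjusted p = 0.0236), by less than 2-fold, and its adjusted p was 0.0810 without *Nf1fl/fl;DhhCre* replicate 1, 0.0663 without its replicate 3 and 0.0645 without double-knockout replicate 2. *Gria4* (GluA4, chr9:4417896-4796234) was at 11.7, 30.7 and 15.1 against 52.7, 52.5 and 92.3 CPM. All double-knockout libraries were above the others (log2 fold change 1.84, SE 0.38, adjusted p = 0.0208). *Gria2* (GluA2, chr3:80681450-80802835), the subunit that makes AMPA receptors impermeable to calcium once its mRNA is edited, was at 5.48, 11.9 and 6.48 against 14.4, 24.7 and 43.2 CPM. The highest *Nf1fl/fl;DhhCre* value was close to the lowest double-knockout value, and the call was at the threshold (log2 fold change 1.73, SE 0.50, adjusted p = 0.0498), being lost with DESeq2 size factors and with every gene retained.

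AMPA subunits are near-identical in their channel pore, and the pore segment is shown because it holds the codon that RNA editing changes in GluA2 and because it tells how far reads of these genes can be kept apart. Each line is 36 bases of the coding strand from GENCODE M21, with the codon of the editing site in capitals.
Gria1: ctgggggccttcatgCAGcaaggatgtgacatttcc
Gria2: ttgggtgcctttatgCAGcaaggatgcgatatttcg
Gria3: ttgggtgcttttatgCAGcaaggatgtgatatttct
Gria4: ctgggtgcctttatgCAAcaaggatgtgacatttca
Grik1: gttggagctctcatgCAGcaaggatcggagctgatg
The *Gria2* window is chr3:80706893-80706928, minus strand, in exon 11 of 16 of the transcript used, with the codon at chr3:80706911-80706913. The *Gria1* window (chr11:57243079-57243114, plus strand) differed from it at 6 bases, the *Gria3* window (chrX:41610250-41610285, plus strand) at 3 and the *Gria4* window (chr9:4464119-4464154, minus strand) at 5. The reference codon was CAG in *Gria1*, *Gria2* and *Gria3* and CAA in *Gria4*, both of which encode glutamine. The *Grik1* codon lies at chr16:87940542-87940544 in exon 13 of 18 on the minus strand, its window spans 2 exons, and it differed from *Gria2* at 13 bases. Editing changes bases and not counts per gene, and was not analysed here.

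Among the 5 kainate receptor subunits, *Grik1* had the largest fold change. *Grik1* (GluK1, chr16:87895900-88290265), a subunit enriched in small sensory neurons, was at 5.69, 14.6 and 2.502 CPM in the *Nf1fl/fl;DhhCre* libraries and 52.7, 61.2 and 123 CPM in the double-knockout libraries. Its mean was 10.4-fold higher (log2 fold change 3.61, SE 0.63, adjusted p = 0.0139), and its range within each genotype was wide. The gene lies on the chromosome that carries *Runx1*, with 4.31 Mb between them. *Grik4* (GluK4), a high-affinity subunit that needs a partner, was at 2.84, 6.49 and 2.76 against 9.16, 10.8 and 16.8 CPM and rose as well (log2 fold change 1.66, SE 0.42, adjusted p = 0.0341). *Grik3* (GluK3) was at 111, 117 and 119 against 63.7, 48.7 and 81.3 CPM. Its libraries did not overlap (log2 fold change -0.86, SE 0.19, adjusted p = 0.0229) and the decrease was below 2-fold, becoming a DEG without double-knockout replicate 3. Its adjusted p was 0.0654 without *Nf1fl/fl;DhhCre* replicate 1, 0.0639 without its replicate 3, 0.0536 without double-knockout replicate 2 and 0.0638 without both muscle-rich libraries. *Grik2* (GluK2) was at 120.2, 88.9 and 106 against 92.0, 66.9 and 75.9 CPM (log2 fold change -0.42, SE 0.17, adjusted p = 0.128). *Grik5* (GluK5) had a log2 fold change of 0.45 (adjusted p = 0.183).

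Of the NMDA subunits, *Grin1* and *Grin3a* rose. *Grin1* (GluN1), the obligatory subunit, was at 1.60, 4.94 and 2.63 against 12.8, 18.0 and 25.9 CPM (log2 fold change 2.69, SE 0.49, adjusted p = 0.0150), without overlap. *Grin3a* (GluN3A), which lowers calcium permeability, was at 4.72, 8.40 and 5.32 against 10.6, 14.2 and 21.5 CPM (log2 fold change 1.32, SE 0.36, adjusted p = 0.0432). Of the glutamate-binding GluN2 subunits, *Grin2a* and *Grin2c* did not pass the filter, with at most 7 and 9 reads in any library. *Grin2b* was at 4.51, 1.31 and 2.82 against 5.42, 3.86 and 5.94 CPM (log2 fold change 1.01, adjusted p = 0.169), and *Grin2d* at 1.94, 1.73 and 2.12 against 1.20, 2.47 and 1.25 CPM (log2 fold change -0.32, adjusted p = 0.639). *Grin3b* was at 1.04, 3.40 and 0.706 against 1.43, 1.15 and 0.264 CPM, and its log2 fold change was -0.90 (adjusted p = 0.510). *Grid1*, a delta subunit, was at 0.347, 0.834 and 0.192 against 1.35, 1.73 and 2.57 CPM, without overlap, and did not pass (log2 fold change 2.15, SE 0.67, adjusted p = 0.0635). It rested on 5, 14 and 3 reads in the *Nf1fl/fl;DhhCre* libraries and entered the test through the others, so its lack of overlap is a description.

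Metabotropic glutamate receptors fall into signaling groups, and 4 of the 6 tested rose. Group III receptors, which couple to inhibitory G proteins and reduce transmitter release, rose in the 3 members tested. *Grm7* was at 3.26, 8.40 and 2.89 against 19.2, 27.5 and 38.4 CPM (log2 fold change 2.64, SE 0.47, adjusted p = 0.0144). *Grm4* was at 1.39, 2.80 and 1.48 against 7.33, 6.91 and 16.3 CPM (log2 fold change 2.39, SE 0.56, adjusted p = 0.0278). *Grm8* (chr6:27275119-28135178) had the largest change of all receptor genes, from 0.277, 0.655 and 0.192 CPM to 3.90, 6.00 and 12.4 CPM (log2 fold change 4.22, SE 0.98, adjusted p = 0.0275). In the *Nf1fl/fl;DhhCre* libraries its values rested on 4, 11 and 3 reads, so the size of the fold change is poorly determined. In group II, *Grm3* was at 0.416, 0.417 and 0.321 against 1.75, 1.15 and 2.24 CPM (log2 fold change 2.06, SE 0.59, adjusted p = 0.0483), with 6, 7 and 5 reads in the former, a call lost whichever library was removed. The group I receptor *Grm5*, which couples to phospholipase C, had a log2 fold change of -0.74 (adjusted p = 0.530). *Grm6* and *Grm2* did not pass the filter.

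**Figure D2:**
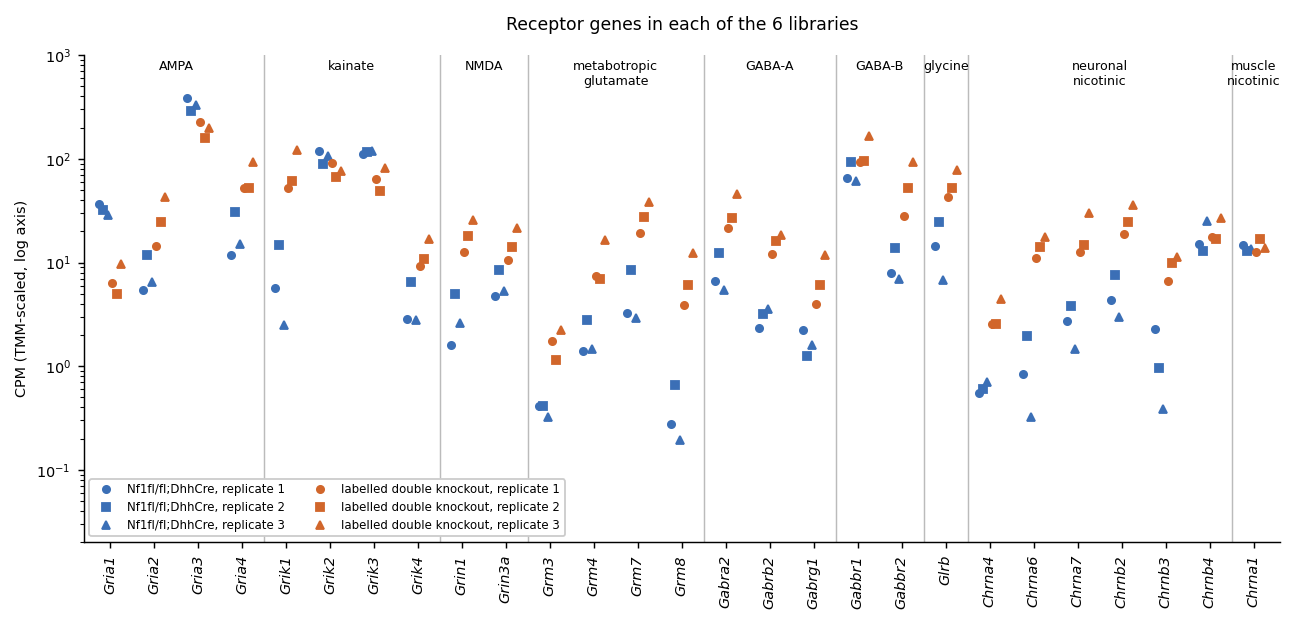
CPM (log axis) of 27 receptor genes described with their values, in each library. Blue, 3 *Nf1fl/fl;DhhCre* libraries; orange, 3 libraries labelled double knockout; circle, square and triangle mark replicates 1, 2 and 3. For *Gria1*, *Gria3* and *Grik3* each orange point lies below each blue point, and for the 20 shown that rose each lies above.

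GABA-A receptors are pentamers, commonly of alpha, beta and gamma subunits. Of the 19 genes, 12 passed the filter, and 6 of them rose and 0 fell in limma-voom, edgeR and DESeq2 each, and 0 were lower at an unadjusted p below 0.05. Among those that rose were *Gabra2*, *Gabrb2* and *Gabrg1*. *Gabrb2* was at 2.36, 3.22 and 3.59 against 12.03, 16.1 and 18.4 CPM (log2 fold change 2.33, SE 0.31, adjusted p = 0.00931). *Gabrb2* was the gene among the 24 whose call held whichever library was removed. *Gabra2*, the alpha subunit prominent in sensory neurons, was at 6.59, 12.3 and 5.39 against 21.5, 26.9 and 45.6 CPM (log2 fold change 1.97, SE 0.41, adjusted p = 0.0209). *Gabrg1* was at 2.22, 1.25 and 1.60 against 3.98, 6.00 and 11.9 CPM (log2 fold change 2.04, SE 0.57, adjusted p = 0.0469), resting on 32, 21 and 25 reads in the *Nf1fl/fl;DhhCre* libraries. The other 6 subunits tested, *Gabra3* and *Gabra5* among them, had log2 fold changes from -0.70 to 1.79 and none was a DEG. *Gabra4*, *Gabrb1* and *Gabrd* did not pass the filter, and *Gabrp* had no read in any library. On chr5, the neighbours of *Gabra2* and *Gabrg1*, *Gabra4* and *Gabrb1*, had at most 22 and 21 reads in any library.

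GABA-B receptors require *Gabbr1*, which binds GABA, and *Gabbr2*, which couples to the G protein and carries the pair to the surface. *Gabbr1* was at 66.0, 94.2 and 61.6 against 94.0, 96.4 and 166 CPM (log2 fold change 0.66, SE 0.27, adjusted p = 0.126), with ranges that overlapped. *Gabbr2* (chr4:46662305-46991873) was at 7.84, 13.8 and 6.86 against 28.2, 52.5 and 92.8 CPM and rose (log2 fold change 2.51, SE 0.54, adjusted p = 0.0220). Of the glycine receptor genes, *Glrb*, the beta subunit that anchors receptors to gephyrin, was at 14.6, 24.8 and 6.80 against 42.6, 52.3 and 78.4 CPM and rose (log2 fold change 2.05, SE 0.45, adjusted p = 0.0231). Of its transmitter-binding alpha partners, *Glra1* and *Glra2* did not pass the filter, *Glra3* had no reads, and *Glra4* was at 2.36, 1.25 and 2.63 against 1.35, 3.21 and 2.51 CPM (log2 fold change 0.19, adjusted p = 0.819).

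Nicotinic receptors are pentamers of neuronal or of muscle subunits. Of 11 neuronal subunits 7 passed the filter and 5 rose, and of 5 muscle-type subunits 3 passed and none was a DEG in limma-voom, edgeR or DESeq2 (0 at an unadjusted p below 0.05). *Chrna6* (alpha6, chr8:27403212-27413944) was at 0.832, 1.97 and 0.321 CPM in the *Nf1fl/fl;DhhCre* libraries, resting on 12, 33 and 5 reads, and at 11.0, 14.2 and 17.8 CPM in the double-knockout libraries. It rose 13.8-fold in the means (log2 fold change 4.05, SE 0.63, adjusted p = 0.0113). Its neighbour *Chrnb3* (beta3, chr8:27368711-27399730), an accessory subunit that assembles with alpha6 and lies 3.48 kb away on the opposite strand, was at 2.29, 0.953 and 0.385 against 6.69, 9.79 and 11.4 CPM (log2 fold change 3.25, SE 0.61, adjusted p = 0.0160), with 33, 16 and 6 reads in the *Nf1fl/fl;DhhCre* libraries. *Chrna7*, which forms homomeric channels with high calcium permeability, was at 2.70, 3.81 and 1.48 against 12.7, 14.7 and 30.2 CPM (log2 fold change 2.85, SE 0.56, adjusted p = 0.0184). *Chrnb2* was at 4.37, 7.63 and 2.95 against 18.9, 24.4 and 36.2 CPM (log2 fold change 2.46, SE 0.42, adjusted p = 0.0134). *Chrnb2* shares 1014 bases of exon with *Adar* on the opposite strand, and without stated strand-specific counting their reads cannot be told apart. The same holds for *Grin1*, *Grm7*, *Grin3b*, *Grin2d*, *Gabra5* and *Grin2b*, which overlap genes on the opposite strand over up to 165, 130, 399, 233, 148 and 143 bases. *Chrna4*, the usual partner of beta2 in brain, was at 0.555, 0.596 and 0.706 against 2.55, 2.55 and 4.49 CPM (log2 fold change 2.30, SE 0.52, adjusted p = 0.0261), with 8, 10 and 11 reads in the former.

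The ganglionic cluster on chr9 held no DEG. *Chrnb4* (beta4, chr9:55028154-55048779), the neuronal subunit with the highest mean CPM per kb in both genotypes, was at 15.1, 12.99 and 25.0 against 17.8, 17.02 and 26.6 CPM (log2 fold change 0.26, SE 0.30, adjusted p = 0.580), with overlapping genotypes. *Chrna3*, its neighbour and partner, was at 0.971, 5.18 and 9.56 against 9.08, 6.09 and 18.6 CPM (log2 fold change 1.45, SE 0.78, adjusted p = 0.227), and *Chrna5* did not pass the filter. *Chrna1*, the muscle alpha subunit, was at 14.7, 12.99 and 13.5 against 12.6, 16.7 and 13.9 CPM (log2 fold change 0.06, SE 0.19, adjusted p = 0.854), and the sign of this value changed with the scaling. *Chrnb1*, present in muscle and other tissues, had a log2 fold change of -0.40 (adjusted p = 0.422). *Chrne*, the subunit of adult muscle receptors, was at 1.11, 1.25 and 0.0641 against 0.638, 4.28 and 0.594 CPM, with the highest value in double-knockout replicate 2, the library with the most skeletal muscle RNA.

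The alpha subunits are recognised by a pair of adjacent cysteines in the agonist-binding loop, which is shown because it identifies the subunits compared here and how far apart they are in sequence. The codons of the pair are in capitals, in 36 bases of the coding strand.
Chrna4: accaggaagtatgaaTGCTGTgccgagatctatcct
Chrna6: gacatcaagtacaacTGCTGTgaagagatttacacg
Chrna3: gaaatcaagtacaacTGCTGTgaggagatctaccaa
Chrna7: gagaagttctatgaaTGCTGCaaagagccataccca
Chrna1: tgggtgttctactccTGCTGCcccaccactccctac
All lie on the minus strand. The *Chrna4* window is chr2:181029263-181029298 (exon 5 of 7 of the transcript used), and *Chrna6* (chr8:27407164-27407199, exon 5 of 6) and *Chrna3* (chr9:55015839-55015874, exon 5 of 6) each differed from it at 13 bases. The *Chrna7* window (chr7:63106143-63106178, exon 7 of 10) differed at 16 bases and the *Chrna1* window (chr2:73570531-73570566, exon 6 of 9) at 25.

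Shares within a family were computed from CPM per kb of merged exon, since levels of different genes compare only per length. A share also moves when the other members of the family change. The AMPA family totalled 42.8 ± 4.06 CPM per kb (SD, n = 3) in the *Nf1fl/fl;DhhCre* libraries and 33.0 ± 6.23 CPM per kb (SD, n = 3) in the double-knockout libraries. Within it, the share of *Gria4* was 3.91, 12.1 and 5.87% against 25.2, 31.2 and 37.4%. The share of *Gria3* was 82.5, 72.7 and 81.6% against 68.8, 59.7 and 51.4%, and that of *Gria1* 12.9, 13.3 and 11.5% against 3.18, 3.11 and 4.08%. *Gria3* led in all 6 libraries, followed by *Gria1* in the *Nf1fl/fl;DhhCre* libraries (with *Gria4* close in replicate 2) and by *Gria4* in the double-knockout libraries.

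The kainate family totalled 25.5 ± 0.87 against 30.9 ± 8.44 CPM per kb (SD, n = 3 each), with overlap (exact permutation test, two-sided, p = 0.40), while the shares of 4 of its 5 subunits did not overlap. *Grik1* accounted for 3.31, 8.23 and 1.51% against 28.3, 37.2 and 45.2% of it, and *Grik3* for 48.5, 49.4 and 53.9% against 25.6, 22.2 and 22.4%. The ratio of *Grik1* to *Grik3* per kb was 0.0876 ± 0.071 against 1.60 ± 0.46 (SD, n = 3 each). In the neuronal nicotinic family, which totalled 7.86 ± 1.64 against 22.7 ± 7.26 CPM per kb (SD, n = 3 each), *Chrnb4*, whose own level was not called, accounted for 64.1, 45.4 and 70.2% against 28.1, 22.7 and 23.2%, and *Chrna6* for 4.54, 8.81 and 1.15% against 22.3, 24.3 and 19.8%. In the GABA-B family, *Gabbr2* accounted for 12.1, 14.6 and 11.5% against 25.9, 38.7 and 39.4%. Of 55 shares of at least 1% in any library, 29 did not overlap between the genotypes, where on the CPM scale 21.8% of all genes did not overlap and were higher and 20.5% were lower. The shares of a family are not independent, and nothing is read from this count. Each of these had p = 0.10 in the two-sided exact permutation test, the smallest that 3 against 3 libraries allow, and 0.19 after Benjamini-Hochberg adjustment over the 55, so no share can pass the threshold in this design.

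**Figure D3:**
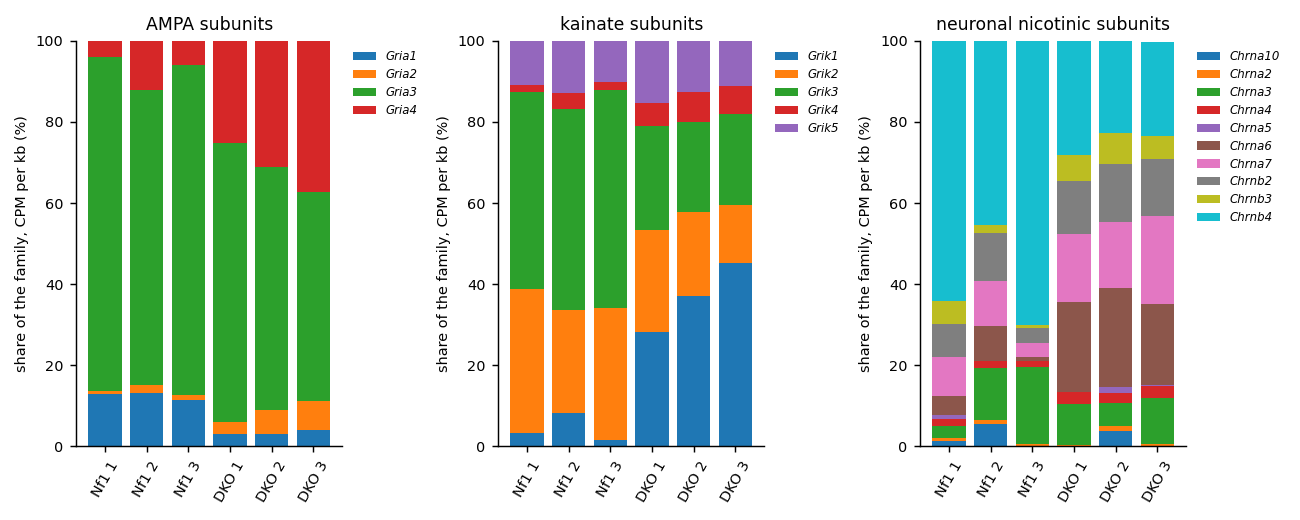
Make-up of the AMPA, kainate and neuronal nicotinic families in each library, as the share (%) of each subunit in the summed CPM per kb of its family. Nf1 1 to 3 are the *Nf1fl/fl;DhhCre* replicates and DKO 1 to 3 the libraries labelled double knockout; the *Gria4*, *Grik1* and *Chrna6* segments are larger in each of the latter, and the *Gria3*, *Grik3* and *Chrnb4* segments smaller.

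The receptor genes that rose and the neuron markers were mostly highest in the same libraries, as were genes that rose in general. Among the 24, double-knockout replicate 3 was the highest of its genotype in 24 and *Nf1fl/fl;DhhCre* replicate 2 in 20; for the 16 pan-neuron markers the same libraries were highest in 16 and 16, for all 1257 genes that rose in 78.6 and 69.8%, and for all genes tested in 42.6 and 37.8%. Each gene was therefore also expressed relative to the mean log2 CPM of the pan-neuron markers of the same library, and the genotypes were compared with limma over all genes. On this scale 3 receptor genes were higher in the double-knockout libraries at an adjusted p below 0.05, against 0.288% of all genes: *Grik1* (difference in log2 units 1.62, SE 0.53, adjusted p = 0.00635), *Chrna6* (2.05, SE 0.64, adjusted p = 0.00501) and *Grm8* (2.19, SE 0.76, adjusted p = 0.0100). Relative to neuron markers, *Grik1* was at -2.58, -2.15 and -3.78 log2 units in the *Nf1fl/fl;DhhCre* libraries and at -1.22, -1.31 and -1.11 in the double-knockout libraries. *Chrna6* was at -5.30, -5.02 and -6.62 against -3.48, -3.41 and -3.90, and *Grm8* at -6.77, -6.56 and -7.26 against -4.96, -4.65 and -4.42. *Chrna6* and *Grm8* passed the filter on low counts through the double-knockout libraries, having 12, 33 and 5 and 4, 11 and 3 reads in the others, so their entry into the test favoured a difference, and their values and the count of 3 are given as a description. *Chrna6* passed whichever library was removed, whereas *Grik1* did not pass without *Nf1fl/fl;DhhCre* replicate 3 and *Grm8* did not without double-knockout replicate 3. The same 3 genes passed with the sensory neuron markers as the reference.

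For the other 21 genes that rose, the difference relative to neuron markers did not pass the threshold and ranged from -0.69 to 1.20 log2 units. *Glrb* (0.05, SE 0.51, adjusted p = 0.934) was close to 0, with an SE that leaves room for a change of about the size of 1 log2 unit in either direction. Relative to neuron markers, 17 of the 48 receptor genes were lower, against 80.3% of all genes, on a scale whose reference itself rose. The lowest was *Gria1*, at 0.11, -1.01 and -0.29 against -4.26, -4.91 and -4.78 log2 units (-4.25, SE 0.52, adjusted p = 2.5e-07).

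**Figure D4:**
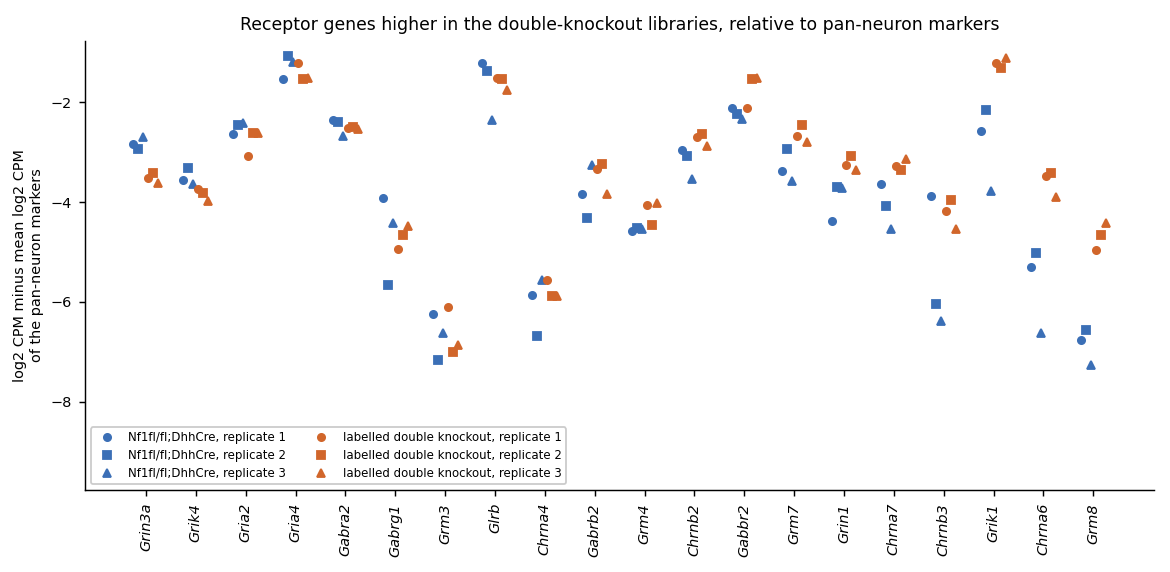
20 of the 24 receptor genes that rose, as log2 CPM minus the mean log2 CPM of the pan-neuron markers of the same library (vertical axis), ordered by the difference between genotypes. Symbols mark genotype and replicate; the largest differences, those of *Grik1*, *Chrna6* and *Grm8*, are at the right.

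Genes that release, clear or anchor the same transmitters were taken from lists drawn up for each pathway. Over all genes tested, 8.03% rose and 5.36% fell with limma-voom. DESeq2 and edgeR each called more of all genes than limma-voom in both directions (DESeq2 2907 in total against 2096). The counts of these lists at an unadjusted p below 0.05 take any size of change. They were not set against a count over all genes, and nothing is read from them. Of 12 genes of glutamate release and uptake tested, 3 rose and none fell in limma-voom, edgeR and DESeq2 (5 higher and 0 lower at an unadjusted p below 0.05), and the 3 were the vesicular glutamate transporters. *Slc17a6*, the main one of sensory neurons, was at 15.7, 50.6 and 15.3 against 95.5, 135 and 239 CPM (log2 fold change 2.65, SE 0.52, adjusted p = 0.0178). *Slc17a7* and *Slc17a8* had log2 fold changes of 2.82 (adjusted p = 0.0262) and 2.39 (adjusted p = 0.0205). The uptake carriers *Slc1a2* and *Slc1a3* of glia were not DEGs. Of 30 scaffold and auxiliary partners of glutamate receptors tested, 7 rose and none fell with limma-voom (15 higher and 3 lower at an unadjusted p below 0.05; edgeR called 8 and DESeq2 10, all higher). Those called were *Cacng2* and *Cacng7* (AMPA receptor auxiliary subunits of the stargazin family), *Cnih3*, the scaffolds *Dlg2*, *Shank3* and *Grip1*, and the kinase *Camk2a*. *Cacng2* was at 0.416, 0.953 and 0.449 against 3.59, 4.77 and 6.14 CPM (log2 fold change 2.99, SE 0.55, adjusted p = 0.0153). It reached the read minimum of the filter in fewer than 3 *Nf1fl/fl;DhhCre* libraries, so its call is a description. *Camk2a* was at 19.5, 107 and 13.4 against 116, 305 and 270.1 CPM (log2 fold change 2.78, SE 0.73, adjusted p = 0.0380), and its highest value in each genotype was in the muscle-rich library.

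Of 18 GABA and glycine genes tested, 3 rose and 1 fell with limma-voom. At an unadjusted p below 0.05, 7 were higher and 2 lower, while edgeR called 3 and 1, and DESeq2 4 and 1. Among all genes tested, 8.03% rose and 5.36% fell with limma-voom, so 1 lower gene in 18 or in 13 is near that share. *Slc6a12*, a betaine and GABA transporter, was at 5.13, 5.30 and 4.49 against 15.7, 13.2 and 16.1 CPM (log2 fold change 1.59, SE 0.22, adjusted p = 0.00957). Of the auxiliary GABA-B subunits, *Kctd8* was at 2.29, 2.68 and 0.577 against 7.01, 12.01 and 17.5 CPM (log2 fold change 2.89, SE 0.68, adjusted p = 0.0282). *Kctd8* reached the read minimum of the filter in fewer than 3 *Nf1fl/fl;DhhCre* libraries, so its call is a description. *Kctd12* was at 211, 161 and 335 against 94.3, 62.2 and 83.4 CPM (log2 fold change -1.51, SE 0.29, adjusted p = 0.0174). The vesicular GABA transporter *Slc32a1* and the neuronal glycine transporter *Slc6a5* had no reads. Of 13 acetylcholine genes tested, 4 rose and 1 fell with limma-voom (7 higher and 2 lower at an unadjusted p below 0.05; edgeR and DESeq2 each called 6 and 1). *Ric3*, a chaperone of nicotinic receptors, was at 23.9, 33.2 and 20.3 against 59.4, 97.2 and 110.0 CPM (log2 fold change 1.77, SE 0.29, adjusted p = 0.0127). *Tmem35*, known as a chaperone of alpha7, was at 0.763, 1.91 and 0.641 against 9.08, 8.63 and 14.9 CPM (log2 fold change 3.38, SE 0.56, adjusted p = 0.0127). Its value in *Nf1fl/fl;DhhCre* replicate 3 was near the read minimum of the filter, so its call is a description as well. *Lynx1* and *Lypd6b*, toxin-like proteins that bind nicotinic receptors, had log2 fold changes of 1.35 (adjusted p = 0.0217) and 2.70 (adjusted p = 0.0470). *Lrp4*, the agrin receptor, fell from 118, 183 and 94.1 to 43.1, 37.5 and 52.4 CPM (log2 fold change -1.52, SE 0.27, adjusted p = 0.0147). *Chat*, which makes acetylcholine, was at 0 to 0.164 CPM.

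The promoters of the receptor genes were searched for the RUNX motif, TGTGGT or its complement ACCACA, in the RefSeq window (GRCm38.p6) from 250 bases before to 50 bases after the start. A promoter was matched for 48 of the 68 genes, and 5 held the motif (10.4%), against 5113 of 27025 genes (18.9%). Of the 24 genes that rose, 15 had a matched promoter and 1 held the motif (6.67%), *Grin1*. Its 36 bases around the motif, chr2:25319303-25319338 on the minus strand, are shown with the motif in capitals.
Grin1: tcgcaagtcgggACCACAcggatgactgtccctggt
The motif began at position -139 from the start. A match of 6 letters is a description of the sequence. The study placed most of its RUNX1 peaks in intergenic regions farther from a start than this window reaches. RUNX binding at these genes was not tested.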

How the data were processed

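Total RNA was amplified (Ovation RNA-Seq System v2) and made into Nextera XT libraries, and the authors aligned paired-end reads to mm10 with TopHat. The deposited values are raw counts of reads per gene made by the authors with featureCounts; the annotation, strandedness and handling of multiply mapped reads are not given in the sources used here. The submitters' processing notes also name CASAVA 1.4 and limma.

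A filter on low counts (filterByExpr of edgeR 4.0.16, at least 10 reads and 15 in total) was followed by TMM scaling and limma-voom (limma 3.58.1, R 4.3.3), with genotype as the only term and Benjamini-Hochberg adjustment over all genes tested. CPM use the TMM-scaled totals. Levels per kb used merged exons of GENCODE M21, which also gave positions and coding sequences. Values relative to neuron markers were log2 CPM (prior count 0.5) minus the marker mean of the same library, fitted with limma. Shares were compared by exact permutation. Plots were made in Python 3.11.15 (matplotlib 3.10.9).

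All members enter the counts. Described with per-library values are DEGs, members with an adjusted p below 0.05, and the member with the highest mean CPM of each family; a few others were named after their values were seen, and a few members are not reported by name. The members, marker lists and pathway lists were chosen with earlier results of these data known. Replicate numbers follow the order of the samples and pair no mice. A count of 0 allows up to 3 counts, 1.8e-05 to 2.41e-05% of a library, for counting error only. The fits were tested on simulated data. Alternatives were DESeq2 1.42.0, the quasi-likelihood test of edgeR, scaling by DESeq2 size factors or library size only, 2 other filters, sample quality weights, unadjusted p-values, another neuron reference and leaving out each library. Leaving out both muscle-rich libraries was added after seeing the data.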

Additional observations from a re-analysis of the deposited data

How the results depend on the processing

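With all libraries kept, the count of receptor DEGs stayed between 24 and 26 under the other tests, scalings, filters, weights and unadjusted p-values. Each of the 24 receptor genes that rose kept a positive fold change in every setting. That sign was close to fixed in advance, because for these genes each double-knockout library lay above each *Nf1fl/fl;DhhCre* library. The count was 18 without both libraries rich in skeletal muscle genes, an alternative chosen after seeing the data. With each library removed in turn, it went from 2 (without *Nf1fl/fl;DhhCre* replicate 1) to 24, and the count over all genes, 2096 with all libraries, from 362 to 2285. The count of receptor genes higher relative to neuron markers ranged from 2 to 4. The count of shares without overlap was 28 with raw counts not divided by length, against 29. With each library removed in turn it went from 29 to 38. Removing a library can only keep or raise this count, so nothing is read from that range. DESeq2 called 2907 genes. The sign of *Chrna1* changed, to -0.014 with library size only and -0.070 without both muscle-rich libraries, and with each library removed in turn it ranged from -0.041 (without double-knockout replicate 2) to 0.175; the cause was not tested. Depth limits *Grm8*, *Grm3*, *Chrna4*, *Chrna6*, *Chrnb3* and *Gabrg1* among others, which rested on 3 to 33 reads in the *Nf1fl/fl;DhhCre* libraries. No paired analysis was made, because the genotypes are different mice and the labels pair none of them.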
